A study of Mus musculus with 12 samples.

Results

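The interleukin 6 family genes described here are 9 genes that were read from the count table by their symbols. They were the ligands Il6, Il11, Lif and Osm, the receptor chains Il6ra, Il6st and Osmr, the transcription factor Stat3 and its feedback inhibitor Socs3. All 9 were found among the 23282 lines of the table, and all 9 were among the 13464 genes that remained after genes with low counts had been removed. RNA was sequenced from 12 tumors of MC38, a mouse colon carcinoma cell line. The tumors were grown subcutaneously on the right flank in wild-type female C57BL/6 mice, which were 6 weeks old at purchase and were acclimated before use. Con mice received saline vehicle and an IgG2a isotype antibody. SFIH mice received 50 mg/kg per day of SFIH, the hexane fraction of a root extract of Inula helenium, and the IgG2a isotype antibody. PD mice received 200 μg of an antibody against PD-1, given 2 times a week. Comb mice received SFIH and the antibody against PD-1. Each group held 3 tumors, taken on day 19, and all tumors came from the same cell line. The label calls the samples tumor cells, but the RNA was extracted from whole tumor tissue, which holds host cells besides MC38 cells. In such bulk RNA, fewer cells of a type and less RNA per cell cannot be told apart.

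Cytokines of this family signal through a shared receptor chain, gp130, which is the product of Il6st. IL-6 and IL-11 first bind a receptor of their own, IL-6 receptor alpha or IL-11 receptor alpha, and the complex then brings gp130 chains together. LIF signals through gp130 with the LIF receptor, and mouse oncostatin M mainly through gp130 with the product of Osmr. The JAK kinases bound to gp130 phosphorylate STAT3, which enters the nucleus and activates genes such as Socs3, whose product blocks gp130 and the JAK kinases. In tumors the ligands are commonly made by macrophages, neutrophils and fibroblasts, and STAT3 is widely studied as a brake on immunity against tumors. STAT3 activity is set by phosphorylation, which counts of RNA do not measure.

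Levels are given as CPM, the counts of a tumor scaled to a common library size after TMM normalisation, and a gene was called where the edgeR quasi-likelihood test gave a Benjamini-Hochberg adjusted p under 0.05. Total counts were between 7870741 and 12261032 per tumor. The libraries count 3′ ends, and levels are compared here between tumors for a gene and not between genes. Comb replicate 3 stood apart, with a TMM factor of 0.760 against 0.884 to 1.12 in the other tumors. The summed level of 8 macrophage markers was 12602 CPM there and 462 to 3305 CPM elsewhere, that of 9 fibroblast markers 23135 CPM against 1055 to 11815 CPM, and that of 8 skeletal muscle markers 7080 CPM against 3.95 to 667 CPM. The 6 adipocyte markers summed to 1127 CPM in Comb replicate 3, 334 CPM in Comb replicate 2 and 32.9 to 80.3 CPM in the other tumors, and the 5 skin markers to 404 CPM in Comb replicate 3 and 2.71 to 25.5 CPM elsewhere. Whether Comb replicate 3 held tissue from around the tumor was not tested. Comb replicate 2 had the second highest sums of macrophage and fibroblast markers. The 8 epithelial markers summed to 2.92 to 23.2 CPM in the tumors other than Comb replicate 3, against 126 CPM in it, and Cdx2, a colon epithelial factor, had at most 1 count in any tumor, so that epithelial markers were close to absent from most of the samples labelled as tumor cells. The values without Comb replicate 3 are given beside the main results of Comb.

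The comparison of Comb with Con asked how tumors under both agents differed from tumors under vehicle and isotype antibody. The receptor chains Il6st and Il6ra were higher, and Stat3 and Il11 lower, in every Comb tumor than in every Con tumor, and for Socs3 the groups overlapped. Il6st, the gene for gp130, was 3.88-fold higher in Comb, Il6ra 1.85-fold higher, and Stat3 at 0.636 times its level in Con. None of the 9 genes was called by edgeR in any of the 7 comparisons, in each of which 0% of all genes tested were called. In Comb against Con, 3 of the 9 genes (Il6st, Il6ra and Stat3) had an unadjusted edgeR p under 0.05, against 25.3% of all genes tested. DESeq2, run as an alternative, called these 3 genes at an adjusted p under 0.05, against 13.8% of the genes for which it gave an adjusted p. DESeq2 without Comb replicate 3 called 2 of the 9, Il6st and Stat3, against 5.07%. Without Comb replicate 1, edgeR called 4 of the 9 in Comb against Con (Il6st, Il6ra, Stat3 and Il11), where it called 28.5% of all genes tested.

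**Figure D1:**
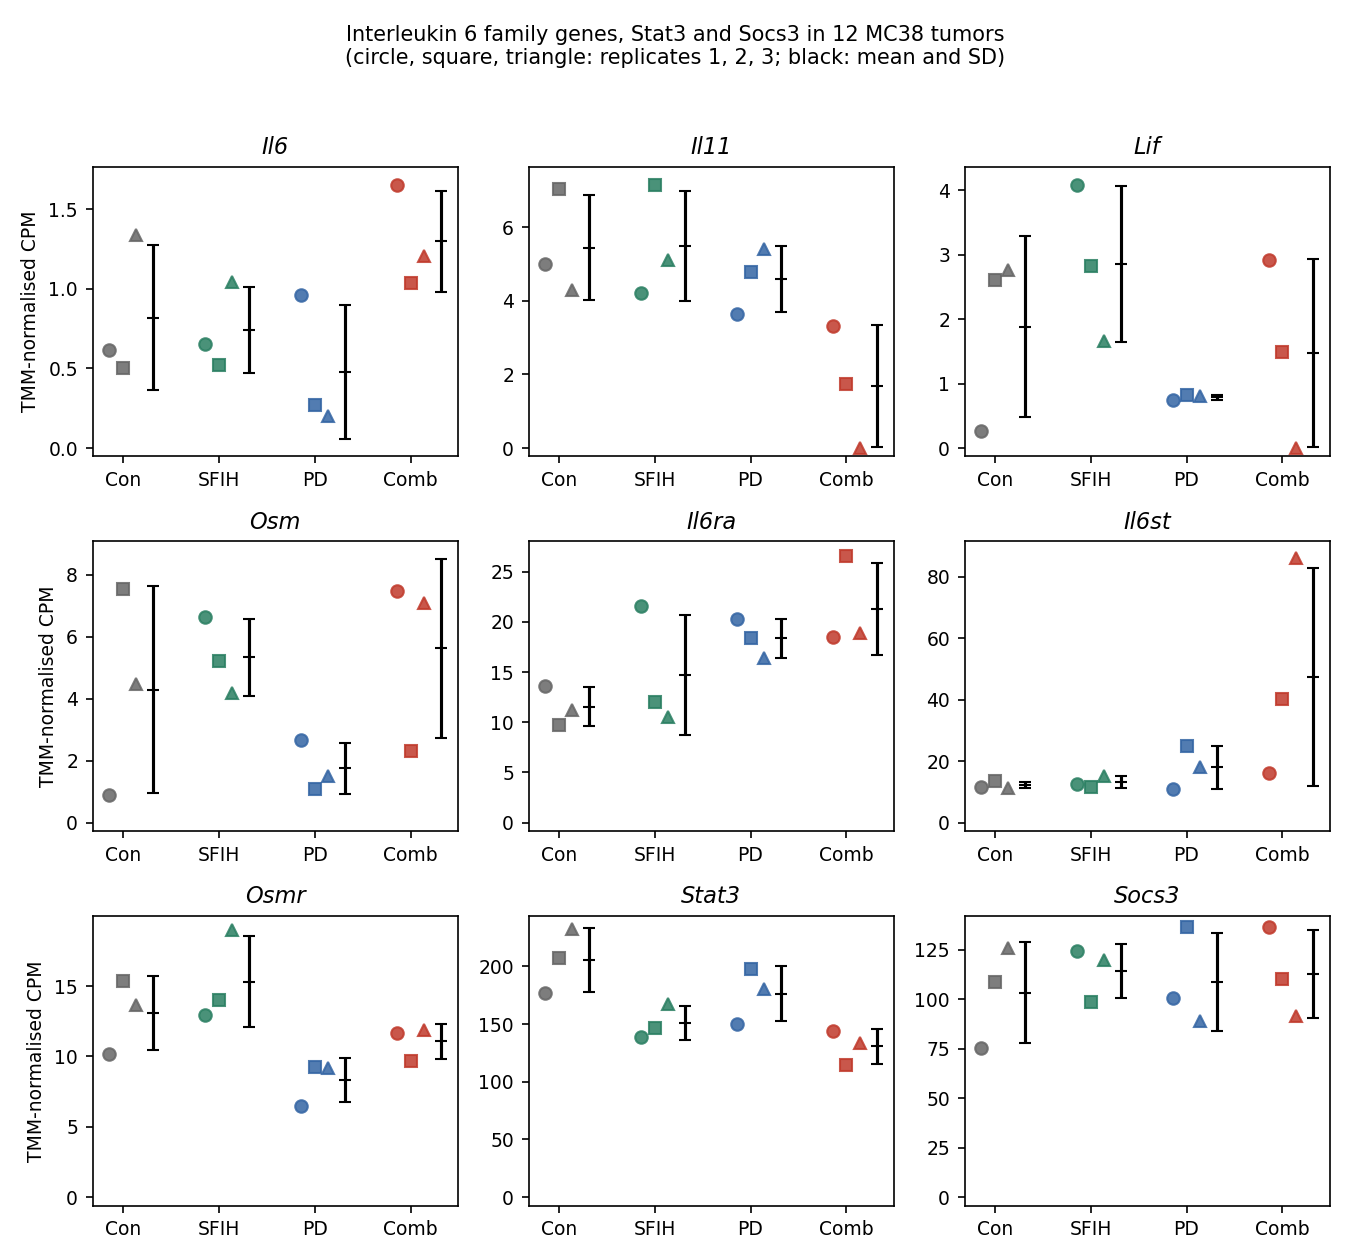
TMM-normalised CPM of the 9 genes in each of the 12 tumors, with circles, squares and triangles for replicates 1, 2 and 3 and the mean and SD of each group (n = 3) in black. Il6st in Comb ranged from 16.1 to 86.0 CPM, and Stat3 in Comb lay between 114 and 144 CPM, below the 177 to 232 CPM of Con.

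Of the ligands, Il6 was the one with the fewest reads. IL-6 is the founding cytokine of the family and an inducer of the acute phase response. Its counts were between 2 and 17 per tumor and 102 over all tumors. The level of Il6 in replicates 1, 2 and 3 was 0.61, 0.50 and 1.34 CPM in Con, 0.65, 0.52 and 1.04 CPM in SFIH, 0.96, 0.27 and 0.20 CPM in PD, and 1.65, 1.04 and 1.20 CPM in Comb. The Comb tumors were above all PD tumors, though not without TMM, and overlapped Con and SFIH. PD replicates 2 and 3, with 2 counts each, were below the floor of 3 counts. Il6 was 1.41 ± 0.70 (SE) higher on the log2 scale in Comb than in PD, with an unadjusted p of 0.0680 and a Benjamini-Hochberg adjusted p of 0.300 in edgeR, and leaving out single tumors gave 1.05 to 2.42, the highest without PD replicate 1. The difference in Il6 between Comb and Con was 0.66 ± 0.66, and its 95% interval ran from −0.80 to 2.11. With each tumor left out in turn it was 0.40 to 1.20, the highest without Con replicate 3.

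Il11 was the ligand whose mean level was lowest in Comb. IL-11 is made largely by fibroblasts and tumor cells and acts on epithelium and stroma. The level of Il11 was 5.00, 7.03 and 4.28 CPM in Con, 4.22, 7.13 and 5.11 CPM in SFIH, 3.63, 4.77 and 5.40 CPM in PD, and 3.30, 1.73 and 0 CPM in Comb. Every Comb tumor was below every tumor of the other groups. Comb replicate 1 was below PD replicate 1 by a narrow margin, with 34 counts in each. No read was counted in Comb replicate 3, where a count of 0 allows up to 0.361 CPM. Against Con, Il11 differed by −1.67 ± 0.81 on the log2 scale (edgeR, unadjusted p = 0.0634, Benjamini-Hochberg adjusted p = 0.222), and DESeq2 gave an adjusted p of 0.105. Without Comb replicate 3 the difference was −1.10 (edgeR adjusted p = 0.189), and without Comb replicate 1 it was −2.62 (edgeR adjusted p = 0.0480). Comb differed from PD by −1.43 ± 0.81 and from SFIH by −1.69 ± 0.81, with unadjusted edgeR p-values of 0.105 and 0.0612. Without Comb replicate 3 these were −0.86 and −1.11 (edgeR, unadjusted p = 0.0582 and 0.0187), and without Comb replicate 1 they were −2.37 and −2.62 (edgeR, unadjusted p = 0.0214 and 0.0130). Within Comb, Il11 was lowest in the tumor with the highest fibroblast markers and highest in the tumor with the lowest, which summed to 2952, 11815 and 23135 CPM in replicates 1, 2 and 3. The part of cell composition in the Il11 values was not tested.

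Lif varied as much within Con and Comb as it did between groups. LIF is known for holding mouse embryonic stem cells undifferentiated. The level of Lif was 0.26, 2.61 and 2.77 CPM in Con, 4.07, 2.82 and 1.67 CPM in SFIH, 0.75, 0.82 and 0.80 CPM in PD, and 2.91, 1.5 and 0 CPM in Comb. Con replicate 1, with 3 counts, and Comb replicate 3, with 0 counts, were both below all PD tumors. PD differed from Con by −1.24 ± 1.05 on the log2 scale (edgeR, unadjusted p = 0.265). Comb differed from Con by −0.33 ± 1.01 with Comb replicate 3 and by 0.24 without it. Each of the 5 pairwise 95% intervals for Lif included 0.

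Osm was lower in PD by mean, but Con replicate 1 lay below all PD tumors. Oncostatin M is made by activated macrophages, neutrophils and T cells and acts on fibroblasts and endothelium. The level of Osm was 0.88, 7.53 and 4.46 CPM in Con, 6.62, 5.20 and 4.17 CPM in SFIH, 2.67, 1.09 and 1.5 CPM in PD, and 7.48, 2.30 and 7.10 CPM in Comb. All SFIH tumors were above all PD tumors for both Osm and Lif, in a pair of groups outside the planned comparisons. SFIH was not compared with PD by a test, and the share of all genes without overlap there was not counted. Osm was higher in Comb than in PD by 1.67 ± 0.70 on the log2 scale, a 3.18-fold difference with an unadjusted p of 0.0370 and a Benjamini-Hochberg adjusted p of 0.260 (edgeR). Comb replicates 1 and 3 were above all PD tumors, and Comb replicate 2 was below PD replicate 1. The difference without Comb replicate 3 was 1.47 (edgeR, unadjusted p = 0.0708). PD differed from Con by −1.27 ± 0.70 (edgeR, unadjusted p = 0.0963), and by −0.61 without Con replicate 2.

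**Figure D2:**
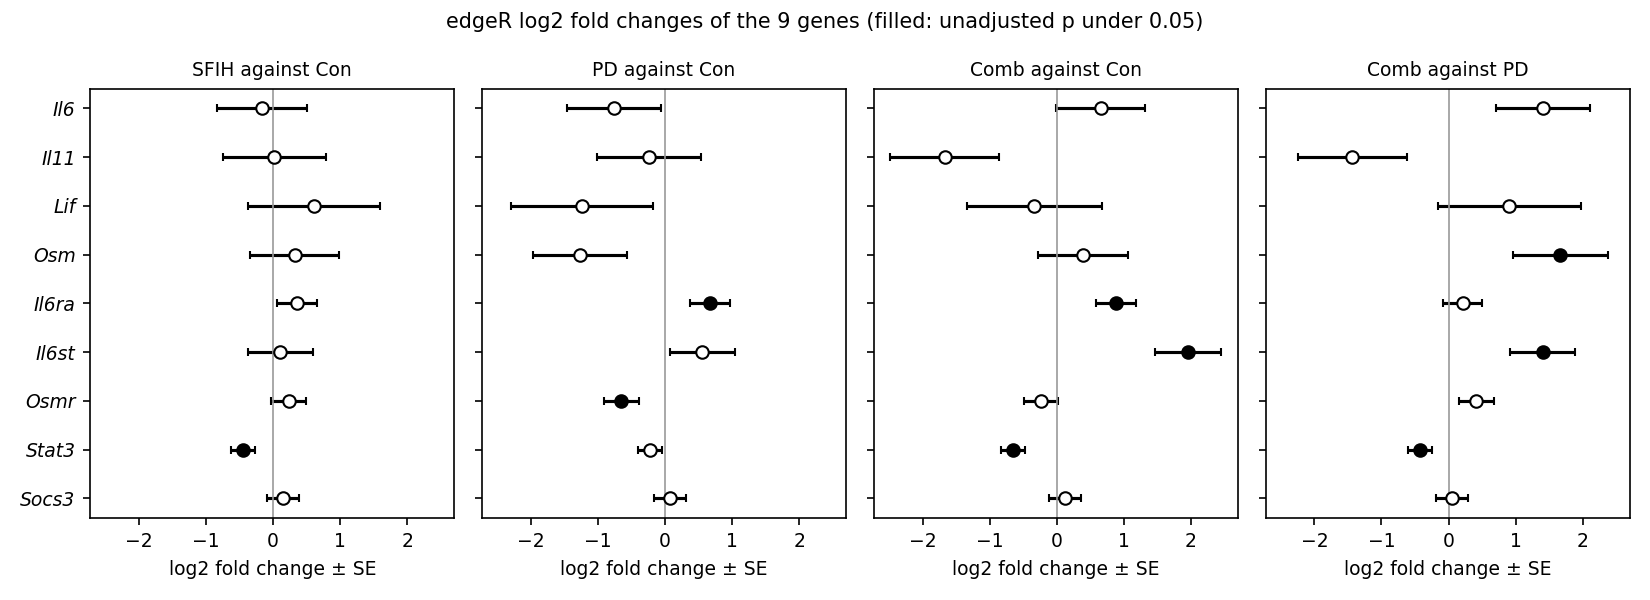
Log2 fold changes of the 9 genes with their SE from edgeR in 4 comparisons, with filled points where the unadjusted p was under 0.05. In Comb against Con the filled points are Il6ra at 0.89, Il6st at 1.96 and Stat3 at −0.65, and in Comb against PD they are Osm at 1.67, Il6st at 1.40 and Stat3 at −0.43.

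Among the receptor chains, Il6ra was higher in both groups that received anti-PD-1 than in Con. IL-6 receptor alpha gives a cell its response to IL-6 and is found mainly on hepatocytes and leukocytes. The level of Il6ra was 13.6, 9.73 and 11.2 CPM in Con, 21.6, 12.0 and 10.5 CPM in SFIH, 20.3, 18.4 and 16.4 CPM in PD, and 18.5, 26.6 and 18.9 CPM in Comb. All PD and all Comb tumors were above all Con tumors, and SFIH replicate 1 was above all PD tumors. Without TMM, Comb replicate 3 (14.3 CPM) was only just above Con replicate 1 (14.1 CPM). Comb differed from Con by 0.89 ± 0.29 on the log2 scale, with an unadjusted p of 0.0116 and a Benjamini-Hochberg adjusted p of 0.101 in edgeR. DESeq2 gave an adjusted p of 0.0401 with all tumors and 0.0593 without Comb replicate 3, where the edgeR difference was 0.96. PD differed from Con by 0.67 ± 0.29 (edgeR, unadjusted p = 0.0426, Benjamini-Hochberg adjusted p = 0.9998). Without TMM the differences from Con were 0.62 in Comb and 0.57 in PD (edgeR, unadjusted p = 0.0801 and 0.103). Comb and PD differed by 0.21 ± 0.29, with a 95% interval from −0.42 to 0.85. The comparisons with Con share the Con tumors, and their values are not independent of each other. Macrophage markers summed to 462 to 776 CPM in Con, 763 to 884 CPM in SFIH, 831 to 1671 CPM in PD and 927 to 12602 CPM in Comb, with all 8 detected in every tumor. Their part in the Il6ra values was not tested.

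Il6st had the highest levels in Comb replicates 2 and 3. Its product gp130 is found on most cell types and is the chain that all the ligands here share. The level of Il6st was 11.8, 13.4 and 11.4 CPM in Con, 12.4, 11.7 and 15.3 CPM in SFIH, 11, 24.8 and 18.1 CPM in PD, and 16.1, 40.3 and 86.0 CPM in Comb. All Comb tumors were above all Con and all SFIH tumors, Comb replicate 1 by a narrow margin, and the Comb and PD tumors overlapped. Comb differed from Con by 1.96 ± 0.50 on the log2 scale, with an unadjusted p of 0.00228 and a Benjamini-Hochberg adjusted p of 0.0671 in edgeR and an adjusted p of 0.0028 in DESeq2. Without Comb replicate 3 the difference was 1.20, with an edgeR adjusted p of 0.136 and a DESeq2 adjusted p of 0.0430. Without Comb replicate 1 it was 2.37, with an edgeR adjusted p of 0.0037. Comb was higher than SFIH by 1.85 ± 0.50 (edgeR adjusted p = 0.128, DESeq2 adjusted p = 0.0078) and higher than PD by 1.40 ± 0.49 (edgeR adjusted p = 0.243, DESeq2 adjusted p = 0.0827). Without Comb replicate 3 these differences were 1.10 and 0.65, and the DESeq2 adjusted p against SFIH was 0.153. The departure of Comb from the sum of the 2 single treatments was 1.29 ± 0.69 for Il6st, with an interaction p of 0.0856 (edgeR, unadjusted), and without Comb replicate 3 it was 0.54. Leaving out Comb replicate 1 gave 1.73 ± 0.49 (edgeR, unadjusted p = 0.0053, Benjamini-Hochberg adjusted p = 0.238). In that fit 2384 of 13856 genes had an unadjusted interaction p under 0.05, against 344 of 13464 with all tumors. PD and Con differed by 0.56 ± 0.49.

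The tumors with the highest Il6st also had the most RNA of fibroblast markers. The 4 tumors with the highest Il6st, Comb replicates 3 and 2 and PD replicates 2 and 3, were also the 4 with the highest sums of fibroblast markers, in the same order, at 23135, 11815, 6875 and 5635 CPM. The order was not particular to fibroblasts, since the same 4 tumors led in macrophage markers (12602, 3305, 1671 and 1091 CPM) and in T cell markers (333, 126, 110 and 51.0 CPM). Adipocyte markers were also highest in Comb replicates 3 and 2, while PD replicates 2 and 3, at 48.8 and 36.6 CPM, were within the range of the remaining tumors. The markers did not all share this pattern, and the receptor genes Pdgfra and Pdgfrb were at 60.5 ± 7.71 and 24.2 ± 0.52 CPM in Comb and 73.0 ± 8.99 and 40.4 ± 11.4 CPM in Con (SD, n = 3). PD replicate 1, with the lowest Il6st level of all at 11 CPM, had 4153 CPM of these markers. In Con the fibroblast markers summed to 2176 to 2671 CPM and in SFIH to 1055 to 3584 CPM. All 9 fibroblast markers were detected in every tumor. The part of cell composition in the Il6st values was not tested.

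**Figure D3:**
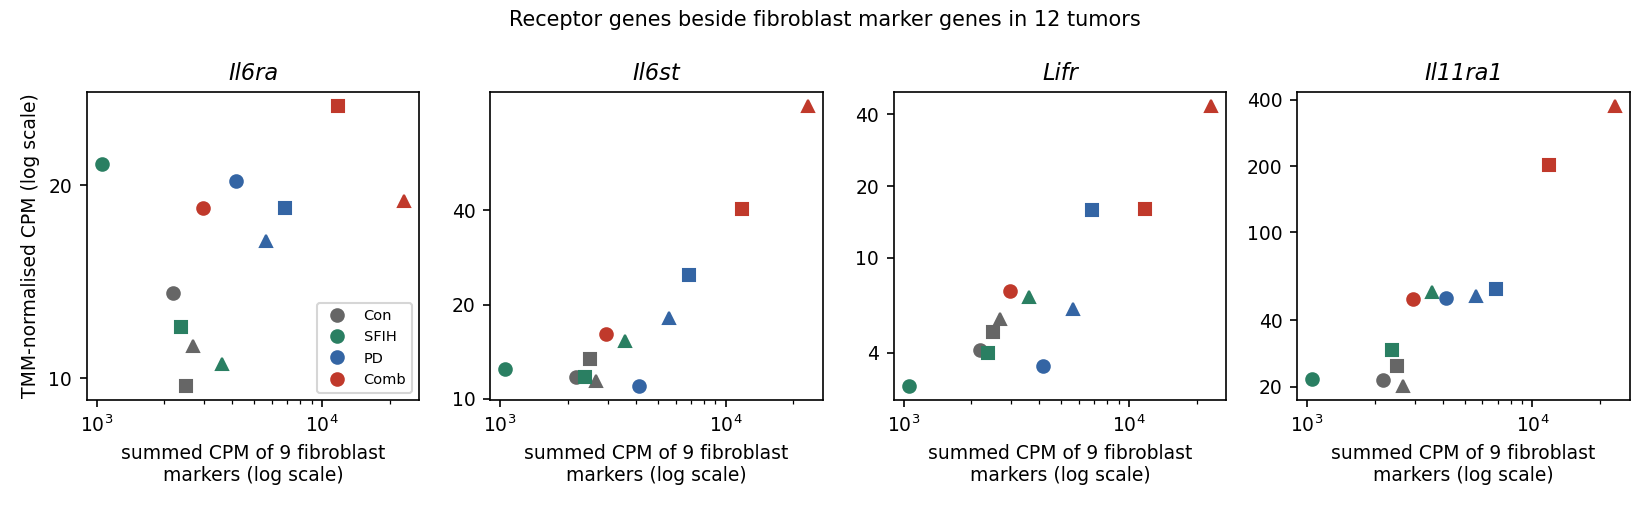
TMM-normalised CPM of Il6ra, Il6st, Lifr and Il11ra1 (vertical, log scale) against the summed CPM of 9 fibroblast markers (horizontal, log scale) in the 12 tumors, colored by group, with circles, squares and triangles for replicates 1, 2 and 3. Comb replicates 2 and 3 lie at the right, with 40.3 and 86.0 CPM of Il6st against 16.1 CPM in Comb replicate 1, while Il6ra has 26.6 and 18.9 CPM there against 18.5 CPM.

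Osmr did not share this pattern. Its product pairs with gp130 to receive oncostatin M and is found on fibroblasts, endothelium and epithelium. The level of Osmr was 10.2, 15.4 and 13.7 CPM in Con, 13.0, 14.0 and 19.0 CPM in SFIH, 6.52, 9.27 and 9.20 CPM in PD, and 11.7, 9.67 and 11.9 CPM in Comb. All PD tumors were below all tumors of the other groups, although without TMM the Comb and PD tumors overlapped, and all Comb tumors were below all SFIH tumors. PD differed from Con by −0.65 ± 0.26 on the log2 scale (edgeR, unadjusted p = 0.0289, Benjamini-Hochberg adjusted p = 0.9998), and leaving out single tumors gave −0.81 to −0.50. Comb differed from PD by 0.41 ± 0.26, from SFIH by −0.47 ± 0.26 and from Con by −0.24 ± 0.26, with unadjusted edgeR p-values of 0.14, 0.0964 and 0.376. The fibroblast markers, by contrast, summed to 4153 to 6875 CPM in PD, above their range in Con.

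Stat3 was lower in both groups that received SFIH. STAT3 is the transcription factor that carries the signal of all ligands above to the nucleus. The level of Stat3 was 177, 207 and 232 CPM in Con, 139, 147 and 167 CPM in SFIH, 150, 197 and 181 CPM in PD, and 144, 114 and 134 CPM in Comb. Every SFIH and every Comb tumor was below every Con tumor, every Comb tumor was also below every PD tumor, and PD overlapped Con. Comb differed from Con by −0.65 ± 0.18 on the log2 scale (edgeR, unadjusted p = 0.00351, Benjamini-Hochberg adjusted p = 0.0707), and DESeq2 gave an adjusted p of 0.0071. The difference without Comb replicate 3 was −0.67, with an edgeR adjusted p of 0.104 and a DESeq2 adjusted p of 0.0187. SFIH differed from Con by −0.45 ± 0.18 (edgeR, unadjusted p = 0.0276, Benjamini-Hochberg adjusted p = 0.9998). PD differed from Con by −0.22 ± 0.18, with a 95% interval from −0.61 to 0.16.

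The Stat3 difference under both agents was close to the sum of those under each agent. The interaction was 0.02 ± 0.25 on the log2 scale, with a 95% interval from −0.53 to 0.57, which does not show that none exists. Comb was lower than PD by −0.43 ± 0.18 (edgeR, unadjusted p = 0.0331, Benjamini-Hochberg adjusted p = 0.256) and differed from SFIH by −0.21 ± 0.18, with a 95% interval from −0.59 to 0.18. Without TMM, the median gene differed by −0.29 between Comb and Con, against −0.03 with it, and Stat3 by −0.91.

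Socs3, the feedback gene, gave overlapping ranges in all groups. SOCS3 binds gp130 and inhibits the JAK kinases there, and its gene is among the best known direct targets of STAT3. The 250 bases before its start hold the core of a STAT binding element, TTCNNNGAA, and are printed for that reason, from RefSeq on GRCm38.p6 at chr11:117969367-117969616, minus strand, 5′ to 3′, with the element in capitals.
Socs3: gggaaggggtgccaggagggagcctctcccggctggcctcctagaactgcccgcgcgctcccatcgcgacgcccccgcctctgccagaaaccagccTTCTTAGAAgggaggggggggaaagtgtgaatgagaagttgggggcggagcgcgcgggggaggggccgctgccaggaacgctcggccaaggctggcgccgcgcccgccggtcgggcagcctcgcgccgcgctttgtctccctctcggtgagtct
The element, TTCTTAGAA, lies between 154 and 146 bases before the start. The motif reads alike on both strands, and it was found in 8.3% of 32851 RefSeq windows of 300 bases around gene starts. Windows were held for 8 of the 9 genes, and Socs3 was the 1 gene whose window had these letters. A match of letters is a description, not a site of binding.

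The level of Socs3 was 75.6, 109 and 126 CPM in Con, 124, 98.7 and 120 CPM in SFIH, 101, 136 and 89.0 CPM in PD, and 136, 110 and 91.8 CPM in Comb. The lowest tumor was Con replicate 1 and the highest were Comb replicate 1 and PD replicate 2, and the spread within Con (103 ± 25.5 CPM, SD, n = 3) was larger than any distance between the group means. The difference from Con was 0.14 ± 0.24 on the log2 scale in SFIH, 0.07 ± 0.24 in PD and 0.13 ± 0.24 in Comb. Their 95% intervals were −0.39 to 0.67, −0.46 to 0.60 and −0.40 to 0.66, and the last 2 differences were below 0 without TMM, at −0.04 and −0.12. Differences of up to about these bounds in Socs3 cannot be told from none with 3 tumors a group.

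The other comparisons were counted over the 9 genes in the same way. In SFIH against Con 1 of the 9 genes (Stat3) had an unadjusted edgeR p under 0.05, against 2.25% of all genes, and in PD against Con 2 of the 9 (Il6ra and Osmr), against 3.99%. In Comb against PD the 3 genes were Osm, Il6st and Stat3, against 18% of all genes, and DESeq2 called 0 of the 9, against 2.81%. In Comb against SFIH the 1 gene was Il6st, against 19%, and DESeq2 also called it, against 7.78%. For any difference among the 4 groups, 3 of the 9 genes (Il6st, Stat3 and Osmr) had an unadjusted edgeR p under 0.05, against 17.8% of all genes, and DESeq2 called Il6st and Stat3, against 11.8%. With all 12 tumors, none of the 9 genes had an unadjusted edgeR interaction p under 0.05, against 344 of all 13464 genes. Without Comb replicate 3, the counts were 4 of 9 in Comb against Con, 1 in Comb against PD and 2 in Comb against SFIH, against 18.8%, 9.02% and 10.8% of all genes.

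Groups without overlap were counted as well. In Comb against Con 2 of the 9 genes were higher in every Comb tumor, against 11.7% of all genes, and 2 were lower, against 13%. In Comb against PD, Il6 and Osmr were higher (6.16% of all genes), both of them only with TMM, and Il11 and Stat3 lower (8.1%). In Comb against SFIH, Il6st was higher (7.65%) and Il11 and Osmr lower (8.56%). In PD against Con, Il6ra was higher (9.42%) and Osmr lower (9.36%). In SFIH against Con none of the 9 was higher (8.55%) and Stat3 was lower (8.86%). Comparisons that have Con or Comb in common share those tumors. The median log2 fold change of the 9 genes was 0.14 in SFIH against Con, −0.24 in PD against Con and 0.13 in Comb against Con, beside 0.02, 0.01 and −0.03 for all genes tested.

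**Figure D4:**
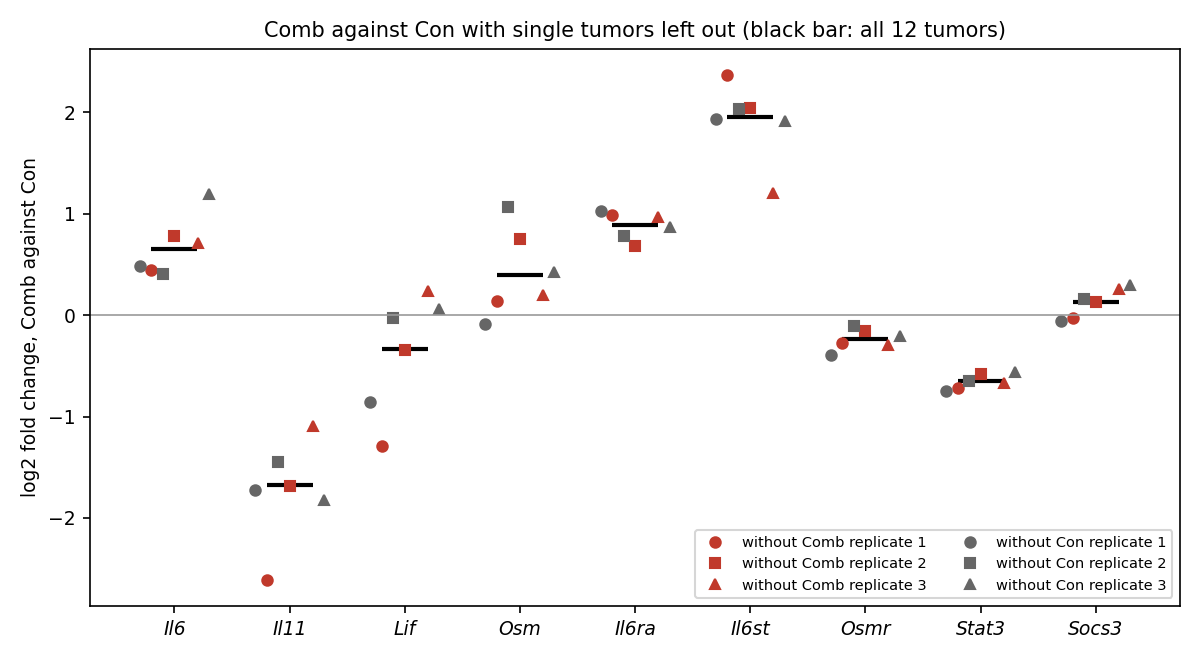
Log2 fold change between Comb and Con of each of the 9 genes in edgeR with all 12 tumors (black bars) and with single Comb (red) or Con (grey) tumors left out. Il6st moved between 1.20 without Comb replicate 3 and 2.37 without Comb replicate 1, Stat3 stayed between −0.75 and −0.56, and Lif, Osm and Socs3 crossed 0.

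Beyond the 9 genes, 23 other genes of the family and its signaling were read, of which 19 passed the filter on low counts. The cytokine genes Il27 and Il31 and the receptor genes Cntfr and Il31ra did not pass. Between Comb and Con, 8 of the 19 (6 higher, 2 lower) had an unadjusted edgeR p under 0.05, against 25.3% of all genes, and without Comb replicate 3 it was 6 (5 higher, 1 lower), against 18.8%. None was called by edgeR, and DESeq2 called 7, against 13.8%, or 2 without Comb replicate 3, against 5.07%. With Comb replicate 1 left out instead, edgeR called 9, against 28.5%. The median log2 fold change of the 19 was 0.19, beside −0.03 for all genes. The counts were 0 in SFIH against Con (2.25% of all genes), 2 higher in PD against Con (3.99%), 2 higher in Comb against PD (18%) and 5 higher with 3 lower in Comb against SFIH (19%). DESeq2 called 1 of the 19 in Comb against PD, against 2.81%, and 2 in Comb against SFIH, against 7.78%.

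The higher genes included the receptor chains of IL-11 and LIF. Il11ra1, the gene for IL-11 receptor alpha, was at 21.4, 24.8 and 20.2 CPM in Con, 21.7, 29.3 and 53.9 CPM in SFIH, 50.7, 55.6 and 51.4 CPM in PD, and 49.9, 203 and 374 CPM in Comb. All PD and all Comb tumors were above all Con tumors, and Comb replicate 1 was below all PD tumors. Against Con the difference was 3.24 ± 0.59 on the log2 scale in Comb (edgeR, unadjusted p = 0.000183, Benjamini-Hochberg adjusted p = 0.0665) and 2.51 without Comb replicate 3, where DESeq2 gave an adjusted p of 2.2e-05. Mouse has close copies of Il11ra1, and how their shared reads were counted is not given in the sources used here, so that the level of this gene is uncertain. Lifr, the LIF receptor, was at 4.12 to 5.53 CPM in Con, 2.91 to 6.88 CPM in SFIH, 3.52 to 15.8 CPM in PD and 7.29, 16.0 and 43.3 CPM in Comb. The difference in Lifr between Comb and Con was 2.19 ± 0.68 (edgeR adjusted p = 0.0870) and 1.26 without Comb replicate 3. Both genes were highest in Comb replicates 3 and 2, as were the fibroblast, macrophage and T cell markers, among others. Without TMM, Lifr was higher in PD replicate 2 (14.7 CPM) than in Comb replicate 2 (14.1 CPM). The part of cell composition was not tested.

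Ligand and inhibitor genes of the list went in both directions. Ebi3, a subunit shared by IL-27 and IL-35, was at 3.61 to 5.09 CPM in Con and 5.93, 12.1 and 23.2 CPM in Comb, a difference of 1.67 ± 0.48 on the log2 scale (edgeR adjusted p = 0.0749) that was 1.06 without Comb replicate 3. Ctf1, the gene for cardiotrophin 1, had an interaction of −1.83 ± 1.11, with an unadjusted edgeR p of 0.128. Its level in Comb was 3.01, 0.69 and 0.12 CPM, the last from 1 count. Il27ra, the IL-27 receptor, was higher in Comb than in PD by 1.45 ± 0.59 (edgeR, unadjusted p = 0.0319), and by 0.58 without Comb replicate 3. Socs1, an inhibitor of JAK kinases that interferons induce, was at 6.93, 11.6 and 17.0 CPM in Con, 25.4, 17.9 and 14.3 CPM in SFIH, 21.1, 22.9 and 21.1 CPM in PD and 23.6, 29.7 and 19.6 CPM in Comb. Socs1 was higher in all PD and all Comb tumors than in all Con tumors, but without TMM Comb replicate 3 lay within the Con range. It differed from Con by 0.87 ± 0.33 in PD (edgeR, unadjusted p = 0.0216) and by 1.03 ± 0.33 in Comb (edgeR adjusted p = 0.0899), and in Comb DESeq2 gave an adjusted p of 0.0269, or 0.0249 without Comb replicate 3. The difference between the Socs1 and Socs3 effects was not tested. Pias3, an inhibitor of STAT3, was at 25.2 to 27.1 CPM in Con, 23.0 to 26.8 CPM in SFIH, 16.1 to 20.2 CPM in PD and 9.86 to 21.6 CPM in Comb. Comb differed from SFIH by −0.80 ± 0.27 and PD from Con by −0.56 ± 0.27 (edgeR, unadjusted p = 0.0123 and 0.0615). Jak1, a kinase bound to gp130, and Adam10, a protease, were lower in all SFIH than in all Con tumors, by −0.36 ± 0.21 and −0.33 ± 0.20, with unadjusted edgeR p-values of 0.118 and 0.129.

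STAT3 activity was approached through 26 genes known to be induced through STAT3, all of which passed the filter. They went in both directions, and the list as a whole was not tested. Every Comb tumor was above every Con tumor for 9 of the 26, against 11.7% of all genes, and below for 2, against 13%. In Comb against Con, 12 of the 26 (10 higher, 2 lower) had an unadjusted edgeR p under 0.05, against 25.3% of all genes, and without Comb replicate 3 it was 8 (5 higher, 3 lower), against 18.8%. None was called by edgeR, and DESeq2 called 9 (8 higher, 1 lower), against 13.8%, or 1 without Comb replicate 3, against 5.07%. Leaving out Comb replicate 1 gave 10 edgeR calls (9 higher, 1 lower), against 28.5%. The counts of higher and lower genes were 0 and 0 in SFIH against Con (2.25% of all genes), 1 and 3 in PD against Con (3.99%), 6 and 1 in Comb against PD (18%) and 7 and 2 in Comb against SFIH (19%). DESeq2 called 1 of the 26 in Comb against PD, against 2.81%, and 4 in Comb against SFIH, against 7.78%. The median log2 fold change of the 26 was 0.05, 0.17 and 0.15 in SFIH, PD and Comb against Con, beside 0.02, 0.01 and −0.03 for all genes tested. Many of these genes are also expressed by macrophages, neutrophils or fibroblasts and are induced by other factors too.

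**Figure D5:**
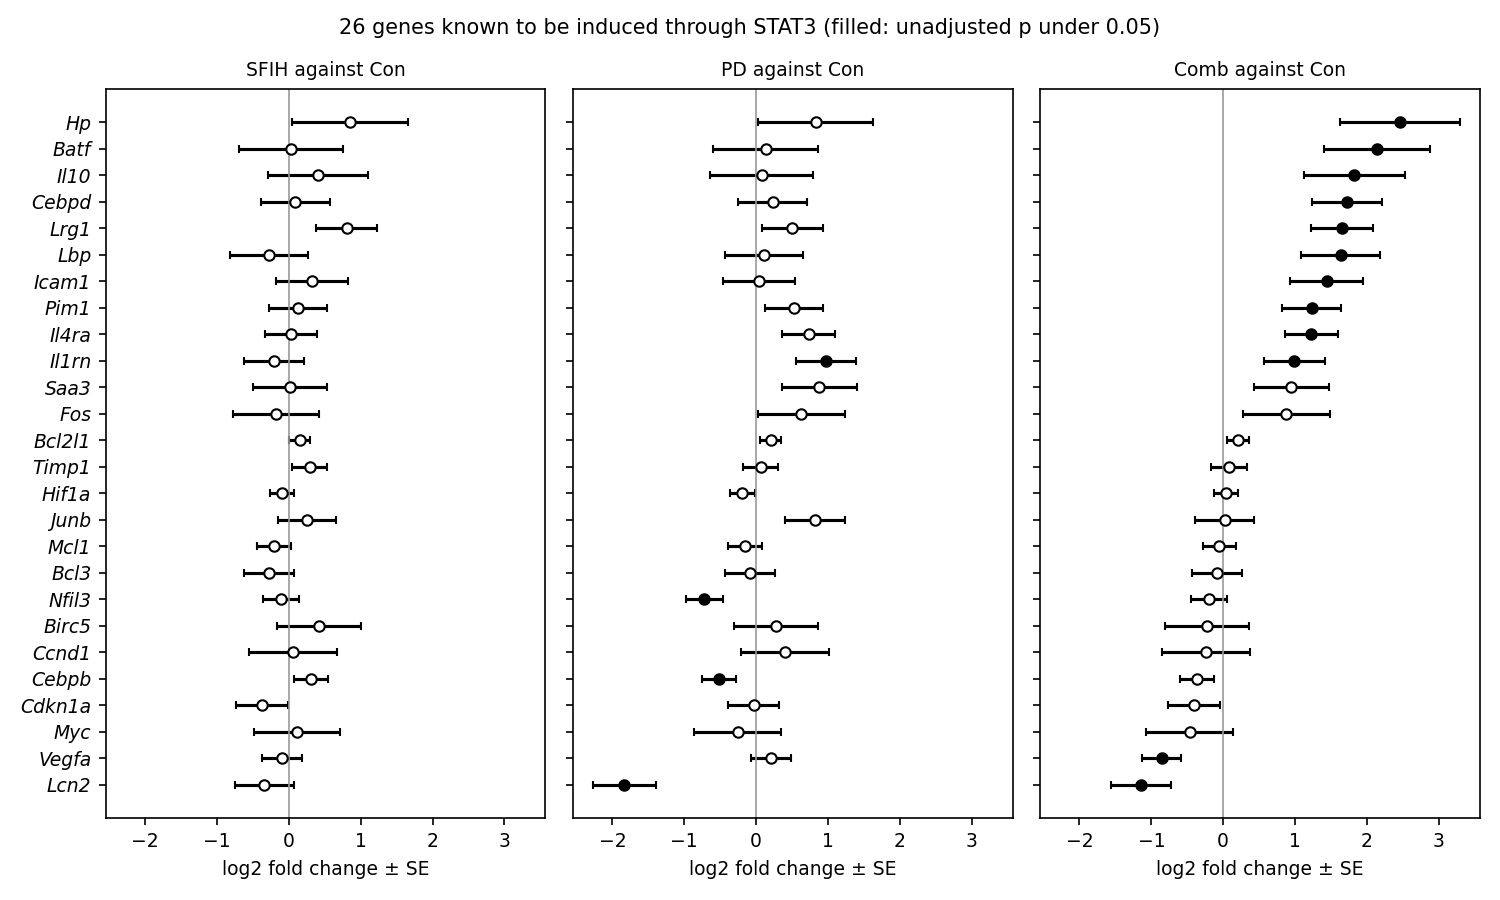
Log2 fold changes with SE (edgeR) of 26 genes known to be induced through STAT3 in SFIH, PD and Comb against Con, ordered by the value in Comb, with filled points where the unadjusted p was under 0.05. In Comb 10 filled points lie above 0 and 2 (Vegfa and Lcn2) below, and in SFIH there are none.

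The target genes with the smallest p in Comb against Con were Lrg1, Cebpd and Il4ra. Lrg1, a secreted acute phase glycoprotein, was at 6.23, 3.91 and 5.18 CPM in Con, 7.57, 12.5 and 6.67 CPM in SFIH, 9.72, 5.45 and 6.60 CPM in PD and 7.67, 23.2 and 17.6 CPM in Comb. All SFIH and all Comb tumors were above all Con tumors. The difference in Lrg1 was 1.66 ± 0.43 in Comb (edgeR adjusted p = 0.0686) and 1.59 without Comb replicate 3 (DESeq2 adjusted p = 0.0245), and 0.80 ± 0.43 in SFIH (edgeR, unadjusted p = 0.0856). Cebpd, a transcription factor of the acute phase response, was at 14.9 to 23.3 CPM in Con and 23.3, 46.2 and 132 CPM in Comb, where replicate 1 was within the Con range without TMM. Its difference of 1.72 ± 0.49 (edgeR adjusted p = 0.0747) was 0.77 without Comb replicate 3. Il4ra, the receptor chain for IL-4 and IL-13, was at 40.0 to 53.3 CPM in Con and 60.4, 104 and 154 CPM in Comb, a difference of 1.23 ± 0.37 (edgeR adjusted p = 0.0803) that was 0.85 without Comb replicate 3. Lbp, which binds bacterial lipopolysaccharide, was higher in Comb than in SFIH by 1.91 ± 0.55. Comb replicate 1, at 9.13 CPM, was within the SFIH range of 4.73 to 12.0 CPM. The Lbp interaction was 1.79 ± 0.77 (edgeR, unadjusted p = 0.0394), or 1.46 without Comb replicate 3.

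Of the other target genes named, some were lower and some higher. Vegfa, which drives vessel growth, was at 88.6, 83.0 and 73.4 CPM in Con, 115, 86.9 and 81.0 CPM in PD and 60.3, 47.8 and 26.9 CPM in Comb, where every tumor was below every Con and PD tumor. Against PD the difference in Vegfa was −1.07 ± 0.28 on the log2 scale (edgeR adjusted p = 0.243, DESeq2 adjusted p = 0.0313), and without Comb replicate 3 it was −0.80 with a DESeq2 adjusted p of 0.0834. Lcn2, an iron-binding protein of neutrophils and epithelium, was at 6.14, 2.81 and 2.77 CPM in Con, 2.98, 3.05 and 3.23 CPM in SFIH, 1.17, 1.09 and 1.0 CPM in PD and 1.65, 2.19 and 1.44 CPM in Comb. The difference between PD and Con was −1.83 ± 0.44 (edgeR, unadjusted p = 0.00141, Benjamini-Hochberg adjusted p = 0.9998). Nfil3, a transcription factor, was also lower in all PD than in all Con tumors, by −0.72 ± 0.25 (edgeR, unadjusted p = 0.0157). The difference in Il1rn, the interleukin 1 receptor antagonist, between PD and Con was 0.97 ± 0.42 (edgeR, unadjusted p = 0.0412), with groups that overlapped, and 0.36 without PD replicate 2. In SFIH against Con the differences in Cebpb, a transcription factor, and Timp1, an inhibitor of metalloproteases, were 0.31 ± 0.23 and 0.29 ± 0.25, with unadjusted edgeR p-values of 0.209 and 0.261.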

How the data were processed

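The authors deposited raw counts per gene symbol from QuantSeq 3′ libraries of 12 tumors, read as single ends of 75 bases on an Illumina instrument. How reads were aligned and counted, on which genome build and annotation and with or without strand, is not given in the sources used here. The columns were assigned to groups by their names and the labels. Counts were analysed in R 4.3.3 with edgeR 4.0.16 (filterByExpr by group with a minimum count of 10, TMM, glmQLFit and glmQLFTest, two-sided, all 12 tumors in 1 fit without a replicate block, Benjamini-Hochberg adjustment over 13464 genes, threshold 0.05), in 5 pairwise comparisons, the interaction of both agents and a test of any difference among the 4 groups. Fold changes are on the log2 scale. Their SE was calculated back from the fold change and the F statistic of the quasi-likelihood test. The 95% intervals use this SE and the moderated degrees of freedom. DESeq2 1.42.0 was the alternative test. The fit was tested on simulated data with 200 changed genes. Total counts of 7870741 to 12261032 per tumor set the counting error. The floor of 3 counts covers counting error only, without molecular identifiers, whereas the 95% intervals include the spread between tumors. Tumors of a group differed by more than counting noise (chi-square per degree of freedom from 11.4 to 388), and no source says how the replicates were chosen beyond 1 library per tumor, so that p-values measure the spread between these tumors.

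The 9 genes, the lists and the tests were chosen with earlier results of these data known. Of the 2 further lists, the text names up to 5 genes called in a comparison or, where none was called, the 3 of each list with the smallest unadjusted p, which gave 19 genes, and the 3 genes most like Il6, Stat3 and Socs3. Alternatives were no TMM, upper-quartile factors, leaving out the ribosomal RNA precursor Rn45s (4.28% to 17.1% of counts), no filter, a mean count of at least 50, only the groups compared, a replicate block, each tumor left out and, added after seeing the data, DESeq2 without Comb replicate 3. Promoter sequences came from RefSeq (GRCm38.p6), and all 9 symbols matched a RefSeq gene. Result tables and plots used Python 3.11.15, pandas 2.3.3 and matplotlib 3.10.9.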

Additional observations from a re-analysis of the deposited data

How the results depend on the processing

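Of the 54 log2 fold changes of the 9 genes (9 genes in 6 comparisons), 36 kept their direction under every alternative run. Without TMM, the differences in Socs3 turned to −0.044 (PD against Con), −0.12 (Comb against Con) and −0.072 (Comb against PD), Osm in Comb against SFIH to −0.20 and the Stat3 interaction to −0.14. The Stat3 interaction was −0.00212 without Rn45s and −0.027 without a filter. Socs3 in Comb against SFIH was 0.0015 in DESeq2, 0.036 with a mean count of at least 50 and 0.010 in a fit of only the groups compared. DESeq2 without Comb replicate 3 gave 0.25 for Lif in Comb against Con, −0.11 for Osm and 0.13 for Socs3 in Comb against SFIH and 0.055 for the Socs3 interaction. Each of these values was smaller than its SE, and the cause was not tested.

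With each tumor left out in turn, ranges that included 0 were as follows. In SFIH against Con they were −0.47 to 0.38 for Il6, −0.23 to 0.23 for Il11, −0.17 to 0.99 for Osm, −0.038 to 0.55 for Il6ra, −0.012 to 0.18 for Il6st and −0.044 to 0.30 for Socs3. In Comb against Con they were −1.29 to 0.24 for Lif, −0.092 to 1.07 for Osm and −0.055 to 0.29 for Socs3. In Comb against PD they were −0.045 to 1.48 for Lif and −0.090 to 0.24 for Socs3, and in Comb against SFIH −0.18 to 0.44 for Osm and −0.16 to 0.11 for Socs3. For Socs3 in PD against Con the range was −0.12 to 0.23. For the interaction they were −0.65 to 0.86 for Lif, −0.34 to 0.26 for Il6ra, −0.075 to 0.13 for Stat3 and −0.24 to 0.11 for Socs3.

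The number of genes called over the whole table was 0 in edgeR in each comparison. DESeq2 called 2 in SFIH against Con, 2 in PD against Con, 2056 in Comb against Con, 399 in Comb against PD, 1190 in Comb against SFIH, 1 for the interaction and 1758 for any difference among the 4 groups. Without Comb replicate 3, DESeq2 called 54, 71, 720, 25 and 95 in the same 5 pairwise comparisons and 887 for any difference. In edgeR, leaving out single tumors gave 0 to 3943 in Comb against Con, 0 to 2100 in Comb against PD, 0 to 3118 in Comb against SFIH and 0 to 2344 for any difference, the highest each time without Comb replicate 1, and without Comb replicate 3 Comb against Con gave 5. Of the 9 genes, DESeq2 called 3 in Comb against Con, 1 in Comb against SFIH and 2 for any difference, and without Comb replicate 3 it called 2 in Comb against Con and 1 for any difference. Leaving out single tumors in edgeR gave 0 to 4, 0 to 1, 0 to 1 and 0 to 1 of the 9 in Comb against Con, PD and SFIH and for any difference, again with the highest values without Comb replicate 1.

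With the replicate number as a block, 0 genes and 0 of the 9 were called in each comparison. No source says that the numbers pair tumors, and the deviations of tumors with the same number correlated by −0.235 to 0.361, against −0.283 to 0.277 for different numbers. Counts per tumor were 2 to 17 for Il6 and 0 to 56 for Lif.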

Other observations

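Among the other ligand genes, chosen here after their values were seen, Clcf1 and Ctf1 had their lowest mean levels in Comb. Clcf1, a cytokine of the family, was at 11.5, 15.4 and 16.9 CPM in Con and 11.6, 3.68 and 5.05 CPM in Comb. Ctf1 was at 3.01, 0.69 and 0.12 CPM in Comb, against 1.23, 3.61 and 4.11 CPM in Con. Clcf1, Ctf1 and Il11 had their highest Comb level in replicate 1.

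The genes whose levels were most like those of 3 of the 9 genes over the 12 tumors were read by Pearson's r of log2(CPM + 1), as a description. For Il6 they were Tdrd3 (r = 0.83), Cab39l (0.80) and Timm9 (0.79). For Stat3 they were Fbxo28 (0.87), Gm5801 (0.86) and Gm7102 (0.86), the last with 0 to 31 counts per tumor. For Socs3 they were Asb6 (0.89), Rbm17 (0.86) and Epor (0.85), with r of 0.89, 0.87 and 0.90 without Comb replicate 3. All points share the 12 libraries and their scaling, and each gene was picked as the highest of all genes tested.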
